A study of Mus musculus with 10 samples.

Results

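The genes described here are the cadherins, the Fat, Dachsous and Celsr cadherins, the non-clustered protocadherins and the calsyntenins, chosen from the counted genes by their symbols (Cdh or Pcdh followed by a number, Fat, Dchs, Celsr or Clstn). The count table held 46 such genes among 24453, and *Dchs2* was not among its symbols. Layer 5 intratelencephalic projection neurons (IT-PNs) of 5 male mice were sorted into a *Fezf2+ve* and a *Fezf2−ve* sample per mouse, and reads were counted in the resulting 10 libraries. All mice were hemizygous for the reporter (Zfp312-EGFP)CO61GsatMmnc on a Swiss Webster background, in which *Fezf2* regulatory elements drive GFP, and all received a cholera toxin subunit b (CTB) tracer coupled to an Alexa dye in the left primary motor cortex (M1) at postnatal day 23 to 25. Layer 5 of the right M1 was dissociated at postnatal day 28 to 32, and cells with both GFP and tracer were sorted as *Fezf2+ve*, cells with tracer alone as *Fezf2−ve*. The types therefore depend on reporter activity and on tracer taken up by the cell. The question was which members of this adhesion family were read in these neurons and whether any differed between the types.

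Cadherins are calcium-dependent adhesion molecules whose extracellular repeats bind partners on the facing cell, mostly of the same kind, and the classical ones are tied to actin through catenins. In the cortex, combinations of classical cadherins and protocadherins mark layers, areas and projection classes and take part in synapse formation, while Fat, Dachsous and Celsr proteins are known from planar polarity, dendrite patterning and axon tract formation. Calsyntenins carry cadherin repeats and link vesicles to kinesin for axonal transport.

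Depth set the scale of every value. The libraries had between 89138 and 217738 reads on genes, with a median of 118134 in *Fezf2+ve* and 168711 in *Fezf2−ve* libraries, so that 3 reads corresponded to 13.8 to 33.7 CPM (reads of a gene per 1000000 reads on genes). Single genes took large shares of some libraries, and the 10 genes with the most reads held 13.3% to 57.1% of a library, the highest shares being 57.1% in *Fezf2+ve* 1 and 47.4% in *Fezf2+ve* 4. Libraries were amplified by PCR and in vitro transcription, and molecular identifiers are not named in the sources used here, so that many reads of a gene in 1 library need not be many molecules.

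The labelled cell type was poorly covered by its defining genes. *Fezf2* itself had a total of 1 read over the 10 libraries, in *Fezf2+ve* 5. Of 10 excitatory neuron markers, 9 had a read and *Tbr1* had 0, with *Slc17a7* at 11 reads in all and *Snap25* at 62. *Camk2a* had the most reads of that list, and 529 of its 588 were in *Fezf2−ve* 3. The list summed to 69, 17, 21, 1 and 9 reads in *Fezf2+ve* libraries 1 to 5 and to 12, 4, 556, 10 and 9 in *Fezf2−ve* libraries 1 to 5. Apart from *Fezf2−ve* 3, the sum was thus at most 69 reads in any library of either type. The 14 microglial markers summed to 32, 19, 12, 11 and 26 reads in *Fezf2+ve* libraries and to 1161, 486, 1225, 392 and 879 in *Fezf2−ve* libraries of animals 1 to 5. All 14 had fitted values lower in *Fezf2+ve*, 11 of them with an unadjusted p under 0.05, against 2.27% of all tested genes in that direction, and none was at 0 reads in the data as a whole. At a false discovery rate of 0.1, edgeR with the animal as a block called 0 of the 14, DESeq2 with the block called 10, against 1.32% of all tested genes, and edgeR without the block called 11, against 3.77%. Of these markers, *C1qa*, *C1qb*, *Tyrobp*, *Tmem119*, *Siglech*, *Aif1* and *Trem2* reached 10 CPM in *Fezf2−ve* libraries only. They passed the filter through that type alone, and nothing is read from their part in these counts of fitted values and calls. *Ctss* was the most abundant of the 14, with 817 reads in all. The difference in microglial reads stands beside every comparison of the types given here, and its part in them was not tested. In such bulk samples, fewer cells of a type and less RNA per cell cannot be told apart.

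Among the 46 members, 6 had no read in any library (*Cdh1*, *Cdh16*, *Cdh24*, *Pcdh1*, *Pcdh12* and *Pcdh18*). Another 14 had reads but did not reach 10 CPM in 2 libraries, and 26 passed this filter and were tested, of 7409 genes tested in all. The filter does not use the type, yet a gene read in only a few libraries can pass through them alone, so the 26 are not the whole family. A read was found in all 10 libraries for 10 members (*Fat3*, *Pcdh9*, *Pcdh15*, *Pcdh7*, *Pcdh11x*, *Cdh13*, *Clstn1*, *Cdh2*, *Cdh10* and *Clstn2*). The family had 31693 reads, and 91.2% of them fell on its 5 most-read members. The reads of a member usually lay in 1 library. Among the 14 members with at least 40 reads, the highest library held a median of 72.8% of the reads, against 63.7% over all 2773 genes with at least 40 reads. It held 80% or more in 6 of the 14, as it did in 34.4% of those 2773 genes, so that such spikes were found across the whole table.

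**Figure D1:**
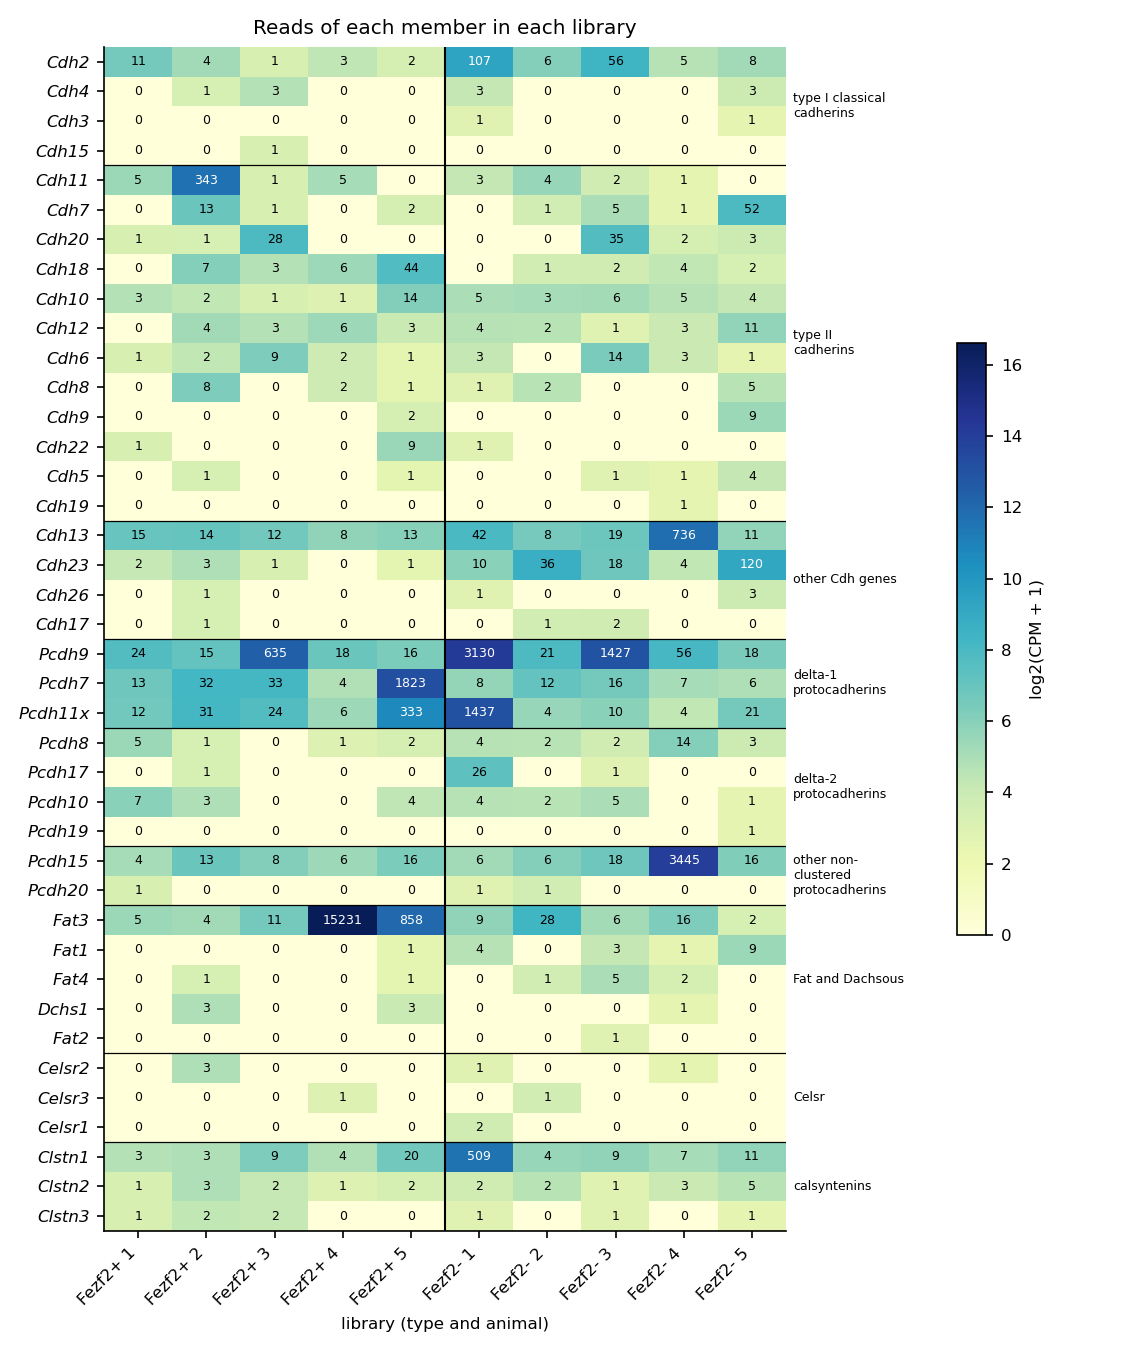
Reads of the 40 members with at least 1 read, in rows grouped by sub-family, in each of the 10 libraries in columns. Colour gives log2(CPM + 1) and the printed number gives the reads. Single dark cells, such as *Fat3* with 15231 reads in *Fezf2+ve* 4, hold most reads of a row.

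The type I classical cadherins include the neuronal, epithelial and muscle forms. *Cdh2*, N-cadherin, which holds synaptic and ventricular junctions together, had 11, 4, 1, 3 and 2 reads in *Fezf2+ve* libraries 1 to 5 and 107, 6, 56, 5 and 8 in *Fezf2−ve* libraries 1 to 5. The *Fezf2−ve* library was higher in CPM in all 5 animals, although the types overlapped and in animals 2, 4 and 5 both libraries had fewer than 10 reads. The fitted log2 fold change, *Fezf2+ve* over *Fezf2−ve* here and below, was -2.04 ± 1.15 (SE, n = 5 animals). For *Cdh2* it ranged from -2.57 without animal 4 to -1.44 without animal 3. *Cdh4*, R-cadherin, had 10 reads in 4 libraries, *Cdh3*, P-cadherin, had 2 and *Cdh15*, M-cadherin of muscle, had 1. *Cdh1*, E-cadherin of epithelia, was at 0 of between 89138 and 217738 reads per library.

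Type II cadherins are expressed in restricted neuron classes and differ in which members of the group they bind. *Cdh11* had 5, 343, 1, 5 and 0 reads in *Fezf2+ve* libraries and 3, 4, 2, 1 and 0 in *Fezf2−ve* libraries of animals 1 to 5, so that 94.2% of its reads lay in *Fezf2+ve* 2. Its log2 fold change was 2.35 ± 1.47 (SE, n = 5 animals), and 1.14 without animal 2. In every other library of either type it had at most 5 reads.

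*Cdh18* had 0, 7, 3, 6 and 44 reads in *Fezf2+ve* libraries 1 to 5 and 0, 1, 2, 4 and 2 in *Fezf2−ve* libraries 1 to 5. It was higher in *Fezf2+ve* in 4 of 5 animals and at 0 in both libraries of animal 1, and its log2 fold change was 2.14 ± 1.24 (SE, n = 5 animals), and 1.27 without animal 5. *Cdh7* had 0, 13, 1, 0 and 2 reads against 0, 1, 5, 1 and 52, with the 2 higher values in different animals and different types. The log2 fold change of *Cdh7* was -1.43 ± 1.76 (SE, n = 5 animals), smaller than its error, and ranged from -3.02 without animal 2 to -0.05 without animal 5.

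*Cdh20* had 1, 1, 28, 0 and 0 reads in *Fezf2+ve* libraries and 0, 0, 35, 2 and 3 in *Fezf2−ve* libraries. Both libraries of animal 3 were therefore high and the other 8 were at 3 reads or fewer. The types did not differ beyond error (log2 fold change -0.29 ± 1.72, SE, n = 5 animals). *Cdh6* was also highest in both libraries of animal 3, with 9 reads in *Fezf2+ve* and 14 in *Fezf2−ve*, against at most 3 in any other library. Whether this reflects the animal or its dissection was not tested.

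*Cdh10* had 3, 2, 1, 1 and 14 reads in *Fezf2+ve* libraries and 5, 3, 6, 5 and 4 in *Fezf2−ve* libraries, with 31.8% in its highest library, *Fezf2+ve* 5, and a range of 6.60 to 68.8 CPM. The log2 fold change of *Cdh10* was -0.46 ± 1.07 (SE, n = 5 animals), and ranged from -1.20 without animal 5 to -0.16 without animal 3. *Cdh12* had 37 reads in 9 libraries and *Cdh8* had 19 in 6. Of the remaining type II genes, *Cdh9* and *Cdh22* had 11 reads each, 9 of them in 1 library in both cases, *Cdh5*, the endothelial cadherin, had 8 in 5 libraries, and *Cdh19* had 1. Endothelial markers were low as well, at 1 to 14 reads per library summed over 9 genes. On chromosome 15 of GRCm38 lie 5 type II genes (*Cdh6*, *Cdh9*, *Cdh10*, *Cdh12* and *Cdh18*), between *Cdh6* from 13028701 and *Cdh18* to 23474418. Their highest libraries lay in 3 different places, which were *Fezf2−ve* 3 for *Cdh6*, *Fezf2−ve* 5 for *Cdh9* and *Cdh12*, and *Fezf2+ve* 5 for *Cdh10* and *Cdh18*.

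**Figure D2:**
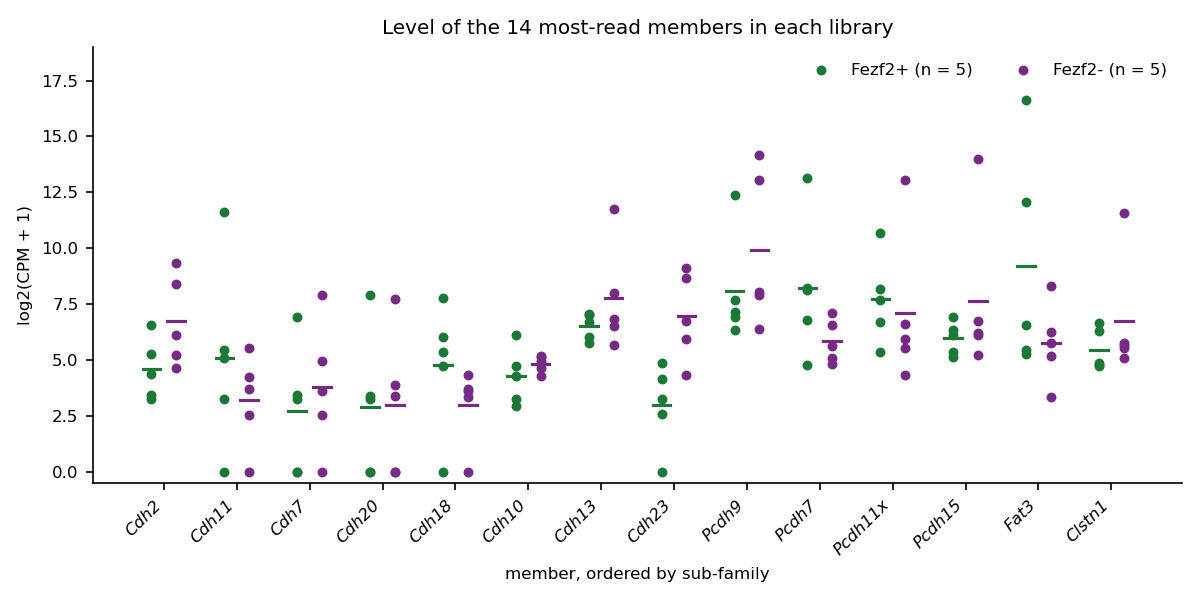
Level, as log2(CPM + 1), of the 14 members with at least 40 reads in each *Fezf2+ve* (green) and *Fezf2−ve* (purple) library, with horizontal bars at the mean of each type (n = 5). For *Cdh20* both types have 1 high library, that of animal 3.

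Of the remaining Cdh genes, *Cdh13* and *Cdh23* carried nearly all reads. *Cdh13*, T-cadherin, which is held in the membrane by a lipid anchor in place of a cytoplasmic domain, had 15, 14, 12, 8 and 13 reads in *Fezf2+ve* libraries and 42, 8, 19, 736 and 11 in *Fezf2−ve* libraries. It was among the most evenly read members apart from *Fezf2−ve* 4, which held 83.8% of its reads. The log2 fold change of *Cdh13* was -0.80 ± 1.24 (SE, n = 5 animals), and -0.0835 without animal 4. *Cdh26* had 5 reads, *Cdh17*, the liver and intestine cadherin, had 4, and *Cdh16* had 0.

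*Cdh23*, which forms the tip links of hair cells together with *Pcdh15*, was the only tested member with an unadjusted p under 0.05. It had 2, 3, 1, 0 and 1 reads in *Fezf2+ve* libraries 1 to 5 and 10, 36, 18, 4 and 120 in *Fezf2−ve* libraries 1 to 5. *Fezf2+ve* libraries had at most 3 reads and *Fezf2−ve* libraries at least 4, and in CPM the *Fezf2−ve* library was higher in each of the 5 animals, though *Fezf2+ve* 2 at 27.9 CPM exceeded *Fezf2−ve* 4 at 18.9 CPM. Its log2 fold change was -3.96 ± 1.31 (SE, n = 5 animals), with an edgeR adjusted p of 0.998 over all tested genes. An exact permutation test of the 5 paired differences in log2(CPM + 1) gave p = 0.0625, two-sided, the smallest value that 5 pairs can give. Any 5 differences of the same sign give this value, so it only restates the direction in the 5 animals. *Cdh23* was thus lower in *Fezf2+ve* libraries in every animal. It did not pass the correction over all tested genes in edgeR with the animal as a block, and did without the block (adjusted p = 0.0931). In DESeq2 with the block its adjusted p was 0.0581, over the 1664 genes left by the independent filtering of that tool.

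Part of these reads can belong to another gene. *Cdh23* lies at chr10:60302748-60696490 on the minus strand of GRCm38, and *Vsir*, an immune checkpoint receptor of myeloid cells, lies inside it at chr10:60346851-60372684 on the plus strand. The counting assigned a read to every gene it overlapped, and the use of strand is not given in the sources used here. *Vsir* had 0 reads in all *Fezf2+ve* libraries and 6, 3, 12, 3 and 0 in *Fezf2−ve* libraries 1 to 5. If each of these was also counted on *Cdh23*, 4, 33, 6, 1 and 120 reads remained for *Cdh23* in *Fezf2−ve* libraries. *Vsir* would then account for 12.8% of the *Fezf2−ve* reads summed over libraries, a sum in which *Fezf2−ve* 5 weighs most. By library the share was uneven, with 6 of 10 reads in animal 1, 12 of 18 in animal 3 and 3 of 4 in animal 4. The *Fezf2−ve* library was still higher in CPM in 5 of 5 animals, and the log2 fold change was -3.20 ± 1.48 (SE, n = 5 animals; edgeR adjusted p = 0.999). In animal 1 this rested on 4 reads against 2, and in animal 4 on 1 read against 0. Those *Fezf2−ve* libraries, at 23.8 and 4.73 CPM, lay below *Fezf2+ve* 2 at 27.9 CPM. The microglial marker sums given above were higher in *Fezf2−ve* in the same 5 animals. Their part in the *Cdh23* difference was not tested.

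**Figure D3:**
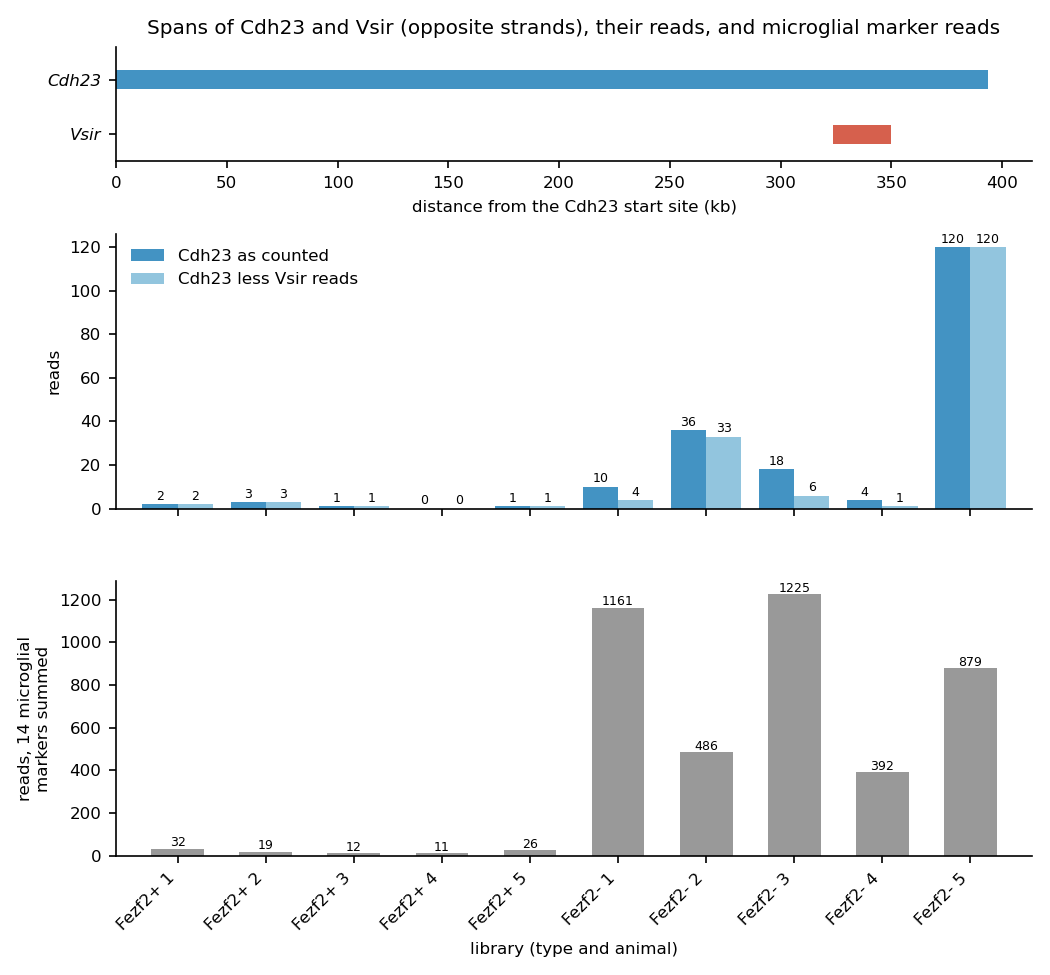
Top, spans of *Cdh23* and *Vsir*, in kb from the *Cdh23* start site. Middle, reads of *Cdh23* in each library as counted and after taking off *Vsir* reads. Bottom, summed reads of 14 microglial markers in the same libraries, 11 to 32 in *Fezf2+ve* and 392 to 1225 in *Fezf2−ve*.

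Delta-1 protocadherins are homophilic adhesion molecules with a phosphatase-binding tail, and their 3 detected members had 9196 reads. *Pcdh9* had 24, 15, 635, 18 and 16 reads in *Fezf2+ve* libraries 1 to 5 and 3130, 21, 1427, 56 and 18 in *Fezf2−ve* libraries 1 to 5. As with *Cdh20* and *Cdh6*, both libraries of animal 3 were high. The *Fezf2−ve* library was higher in CPM in all 5 animals, by as little as 82.7 against 78.7 CPM in animal 5, and the log2 fold change was -1.37 ± 1.30 (SE, n = 5 animals). Without animal 1, whose *Fezf2−ve* library held 58.4% of its reads, it was -0.70. *Pcdh9*, *Cdh2* and *Cdh23* were the 3 of 26 tested members lower in *Fezf2+ve* in all 5 animals, which held for 2.6% of all tested genes, and 0 of 26 were higher in all 5, against 1.62% of all tested genes. For *Pcdh9* and *Cdh2* the exact permutation p was also 0.0625, which 5 paired differences of the same sign always give, so it only restates the direction.

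*Pcdh7* had 13, 32, 33, 4 and 1823 reads in *Fezf2+ve* libraries and 8, 12, 16, 7 and 6 in *Fezf2−ve* libraries. It was higher in CPM in *Fezf2+ve* in 4 of 5 animals, and 93.3% of its reads lay in *Fezf2+ve* 5 (log2 fold change 1.77 ± 1.34, SE, n = 5 animals, and 0.87 without animal 5). A non-coding gene, *4932441J04Rik*, overlaps the start of *Pcdh7* on the other strand over 2.23 kb, with 0, 4, 4, 3 and 3 reads in *Fezf2+ve* libraries and 7, 1, 3, 0 and 3 in *Fezf2−ve* libraries. If each of these was also counted on *Pcdh7*, 13, 28, 29, 1 and 1820 reads remained for it in *Fezf2+ve* and 1, 11, 13, 7 and 3 in *Fezf2−ve* libraries. Its counts outside *Fezf2+ve* 5, and the fold change without animal 5, are therefore uncertain. *Pcdh11x*, the X-linked delta-1 gene, had 12, 31, 24, 6 and 333 reads in *Fezf2+ve* libraries and 1437, 4, 10, 4 and 21 in *Fezf2−ve* libraries. *Fezf2+ve* was higher in 4 of 5 animals and *Fezf2−ve* in animal 1. Its log2 fold change of 1.514 ± 1.503 (SE, n = 5 animals) with the animal as a block was 0.59 without animal 5 and 2.34 without animal 1, and -1.54 when the block was left out. *Pcdh7* and *Pcdh11x* had high counts together in *Fezf2+ve* 5, and *Pcdh9* and *Pcdh11x* in *Fezf2−ve* 1. *Pcdh1* had 0 reads.

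Delta-2 protocadherins bind the WAVE actin regulators through a motif in their tail and had few reads. *Pcdh8* had 34 reads in 9 libraries, *Pcdh10* had 26 in 7, *Pcdh19*, the X-linked epilepsy gene, had 1 and *Pcdh18* had 0. *Pcdh17* had 28 reads, of which 26 lay in *Fezf2−ve* 1, and did not pass the filter. An antisense gene, *1700027H10Rik*, overlaps 19.04 kb of *Pcdh10* and had 23 reads in all, so the reads of this pair cannot be told apart. The 7 WAVE partner genes were all tested, 3 with values higher and 4 lower in *Fezf2+ve*, and 0 had an unadjusted p under 0.05 in either direction. *Nckap1* had the most reads of them, 1447 of 1510 in *Fezf2−ve* 5.

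*Pcdh15*, the partner of *Cdh23* in tip links, had 4, 13, 8, 6 and 16 reads in *Fezf2+ve* libraries and 6, 6, 18, 3445 and 16 in *Fezf2−ve* libraries. Apart from *Fezf2−ve* 4, which held 97.4% of its reads, it had between 4 and 18 reads everywhere and the types overlapped fully (log2 fold change -0.75 ± 1.42, SE, n = 5 animals, and 0.0321 without animal 4). *Pcdh15* thus did not follow *Cdh23*, and the high *Pcdh15* count was in the *Fezf2−ve* library with the fewest *Cdh23* reads. *Fezf2−ve* 4 was also the library in which *Cdh13* was high. *Pcdh20* had 3 reads and *Pcdh12*, the vascular endothelial protocadherin, had 0.

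Among the Fat and Dachsous genes, *Fat3*, which shapes the dendrites of retinal amacrine cells, had the largest count of the family. It had 5, 4, 11, 15231 and 858 reads in *Fezf2+ve* libraries 1 to 5 and 9, 28, 6, 16 and 2 in *Fezf2−ve* libraries 1 to 5. The 2 high libraries were both *Fezf2+ve*, and the other 8 had 2 to 28 reads. *Fezf2+ve* was higher in CPM in 3 of 5 animals, and the log2 fold change of 2.47 ± 2.61 (SE, n = 5 animals) was smaller than its error. It was 4.83, 5.06, 4.15, 0.84 and 0.80 when animals 1 to 5 were left out in turn, and 8.67 in the fit without the block. In limma-voom with the block *Fat3* had an unadjusted p under 0.05. *Fat1*, which acts in actin organisation and growth control, had 0, 0, 0, 0 and 1 reads in *Fezf2+ve* libraries and 4, 0, 3, 1 and 9 in *Fezf2−ve* libraries. It was lower in *Fezf2+ve* in 4 animals and at 0 in both libraries of animal 2. Its log2 fold change was -3.27 ± 1.78 (SE, n = 5 animals), and it had an unadjusted p under 0.05 only in the fit without the block. *Fat1* reached 10 CPM only in *Fezf2−ve* libraries (23.8, 17.8 and 41.3 CPM in animals 1, 3 and 5), against at most 4.92 CPM in *Fezf2+ve*. It thus passed the filter only through the type where it was high, and nothing is read from its fold change or p. *Fat4* had 10 reads, its ligand *Dchs1* had 7 and *Fat2* had 1.

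The Celsr genes, which guide axon tracts, were hardly read. *Celsr2* had 5 reads in 3 libraries, *Celsr3* had 2 in 2 and *Celsr1* had 2 in 1, and none of the 3 was tested. Of 13 planar polarity partners, 10 had a read and 5 were tested, 2 with values higher and 3 lower in *Fezf2+ve* and 0 with an unadjusted p under 0.05. Without the block edgeR called 1 of the 5, *Dvl3* (adjusted p = 0.0931), against 3.77% of all tested genes. *Dvl3* had the most reads, 2715 of 2816 in *Fezf2−ve* 5, and *Fzd6*, *Fjx1* and *Scrib* had 0.

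Calsyntenins were read in both types. *Clstn1*, which links amyloid precursor protein vesicles to kinesin light chain, had 3, 3, 9, 4 and 20 reads in *Fezf2+ve* libraries and 509, 4, 9, 7 and 11 in *Fezf2−ve* libraries. *Fezf2−ve* 1 held 87.9% of its reads, and in the other 9 libraries the types overlapped (log2 fold change -0.67 ± 1.28, SE, n = 5 animals, and 0.11 without animal 1). *Clstn2* had 22 reads spread over all 10 libraries, with at most 5 in any of them, and *Clstn3* had 8 in 6 libraries. Of 8 genes of the calsyntenin transport route, 6 were tested, 5 with values higher and 1 lower in *Fezf2+ve*, while 45.7% of all tested genes had higher values. *Kif5a*, a neuronal kinesin heavy chain, was the 1 of 6 with an unadjusted p under 0.05, against 3.89% of all tested genes, with 11, 230, 5, 1 and 10 reads in *Fezf2+ve* and 4, 1, 3, 0 and 3 in *Fezf2−ve* libraries. It was higher in CPM in *Fezf2+ve* in all 5 animals, as were 1.62% of all tested genes, with a log2 fold change of 2.84 ± 1.33 (SE, n = 5 animals; edgeR adjusted p = 0.998). *App*, the amyloid precursor, had the most reads of the list, with 311 in *Fezf2+ve* 1 and 1046 in *Fezf2+ve* 2 of 1526 in all.

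The catenins and linkers that tie cadherins to actin were all read, 15 of 15, and 11 were tested, 6 with values higher and 5 lower in *Fezf2+ve*. *Jup*, plakoglobin, was the only one with an unadjusted p under 0.05, against 3.89% of all tested genes. It was higher in *Fezf2+ve* in 4 animals and lower in 0 (log2 fold change 5.57 ± 2.36, SE, n = 5 animals). Without the block edgeR called it (adjusted p = 0.0931). However, 826 of its 838 reads lay in *Fezf2+ve* 2. The *Fezf2−ve* libraries had 1 read in all, so *Jup* passed the filter through *Fezf2+ve* alone and nothing is read from its fold change or p. *Ctnnd1*, p120 catenin, had the most reads, 1021 of 1057 in *Fezf2+ve* 3. *Ctnnb1*, beta-catenin, had 9, 4, 9, 0 and 12 reads in *Fezf2+ve* and 2, 1, 3, 1 and 0 in *Fezf2−ve* libraries. It was higher in CPM in *Fezf2+ve* in 4 of 5 animals (log2 fold change 2.22 ± 1.44, SE, n = 5 animals). *Ctnnd2*, the neuronal delta-catenin, had 9, 59, 60, 4 and 290 reads in *Fezf2+ve* and 11, 12, 20, 5 and 26 in *Fezf2−ve* libraries. It was higher in CPM in *Fezf2+ve* in all 5 animals, as were 1.62% of all tested genes. Its log2 fold change was 1.69 ± 1.08 (SE, n = 5 animals; edgeR adjusted p = 0.998), and 290 of its 496 reads lay in *Fezf2+ve* 5. *Ctnna2*, the neuronal alpha-catenin, had 237 reads and was lower in *Fezf2+ve* in 4 of 5 animals (log2 fold change -0.62, smaller than its error). Of 7 cadherin proteases, 4 were tested, 1 with a value higher and 3 lower in *Fezf2+ve* and 0 with an unadjusted p under 0.05, and *Psenen* had the most reads with 75.

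Across the family, 0 of 26 tested members were called between the types at a false discovery rate of 0.1 by edgeR with the animal as a block, as were 0 of 7409 tested genes (0%). At an unadjusted p under 0.05, 1 of 26 members stood beside 288 of 7409 genes (3.89%), of which 168 (2.27%) were lower in *Fezf2+ve* as *Cdh23* was. Nothing about the family is read from a count of 1 member. DESeq2 with the block called 1 member, *Cdh23* (adjusted p = 0.0581), and 98 genes in all (1.32%, or 5.89% of the 1664 genes with an adjusted p). Only 10 of the 26 tested members had an adjusted p in DESeq2, and the other 16 could not be called. Without the block, edgeR called 4 members (*Fat3*, *Pcdh15*, *Pcdh7* and *Cdh23*) and 279 genes in all (3.77%), and limma-voom with the block called 0 members and 13 genes (0.175%). At an unadjusted p under 0.05 these 3 fits held 1, 9 and 2 members, against 4.08%, 18.2% and 6.59% of all tested genes. The 9 include *Fat1*, from whose p nothing is read. Of the 4 members called without the block, *Fat3*, *Pcdh15* and *Pcdh7* each had over 90% of their reads in 1 library. Every tested member had an edgeR adjusted p of 0.998 with the block. Fitted values were higher in *Fezf2+ve* for 10 members (38.5%, against 45.7% of all tested genes) and lower for 16. The median log2 fold change of the 26 was -0.25, against -0.16 over all tested genes. *Fat1*, *Fat4* and *Cdh17* reached 10 CPM only in *Fezf2−ve* libraries, and *Dchs1* and *Clstn3* only in *Fezf2+ve* libraries. They passed the filter only through the type where they were high, so nothing is read from their part in these counts and this median. The members' median was 0.0189 with limma-voom and 0.0123 with animals 1 and 4 left out. The median standard error of the members was 1.45 on the log2 scale, against 1.78 over all tested genes. It did not go with the number of reads alone, since *Fat3* with 16170 reads had an error of 2.61 and *Cdh10* with 44 reads had 1.07.

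**Figure D4:**
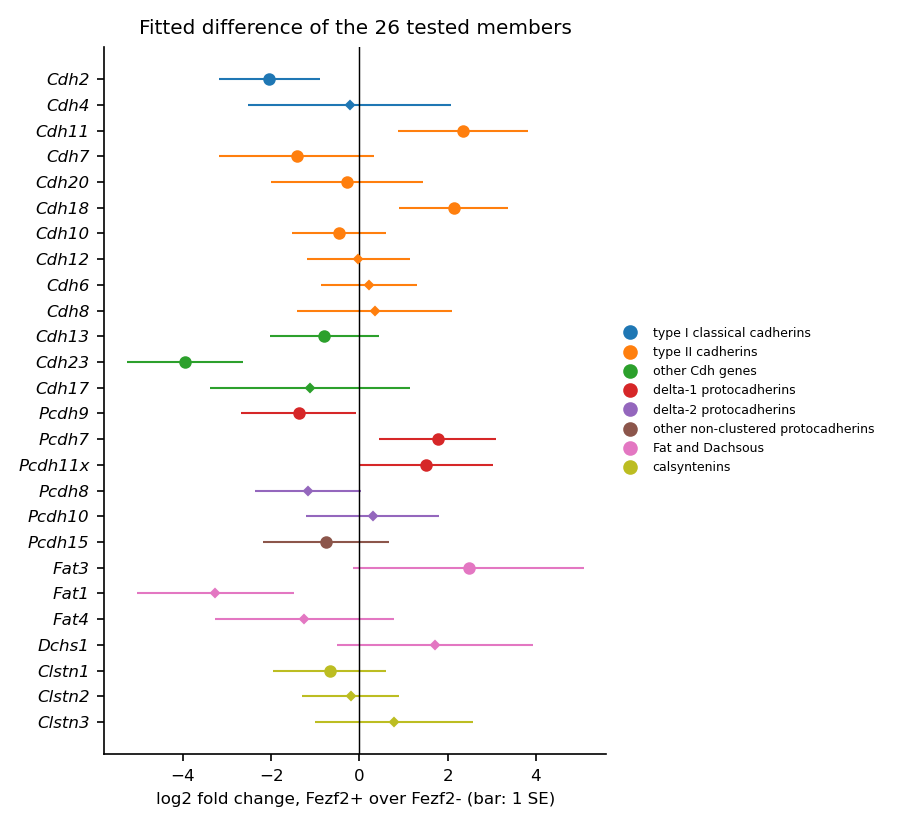
Fitted log2 fold change, *Fezf2+ve* over *Fezf2−ve*, of the 26 tested members, with bars of 1 SE (n = 5 animals) and colours by sub-family. Circles are the 14 members with at least 40 reads and diamonds the 12 others. *Cdh23* lies lowest at -3.96 and *Fat3* highest at 2.47.

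The family's share of gene reads varied widely within each type, and the types overlapped. It was 0.0973%, 0.483%, 0.667%, 10.1% and 1.56% in *Fezf2+ve* libraries 1 to 5 and 3.17%, 0.166%, 0.987%, 2.05% and 0.152% in *Fezf2−ve* libraries 1 to 5. In *Fezf2+ve* 4, *Fat3* alone made up 99.5% of the family's reads. Leaving out the most-read member of each library, the shares ranged from 0.0488% to 0.663% in *Fezf2+ve* and from 0.0969% to 1.31% in *Fezf2−ve*, which again overlap. The number of members with a read was 17 to 29 per library in *Fezf2+ve* and 22 to 27 in *Fezf2−ve*.

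Longer members tended to have higher median levels, with exceptions. *Clstn1* was read in all 10 libraries with a span of 62.4 kb, whereas *Cdh4*, with 457 kb, had 10 reads. The 26 tested members had a median gene span, exons and introns together, of 223.7 kb, and the 20 others of 44.6 kb, while all tested genes with a known position had a median of 46.01 kb. Across the 46 members the Spearman correlation of span with the median CPM over 10 libraries was 0.690, which includes the 20 that were not tested. Across the 26 tested members it was 0.587, and across 7172 tested genes it was 0.328. These values are descriptions across genes counted in the same libraries. In 83.8% of 413 pairs of a gene with at least 10 reads nested in another, the outer gene had at least as many reads as the inner one in every library, and in the remaining pairs it did not, so the span over which each gene was counted is not settled by these values. The library protocol favours the ends of transcripts, and a value per length of span is not a number of molecules. Per 100 kb of span, the order of the 10 members read in all libraries by median CPM was *Clstn1* (76.4), *Pcdh9* (25.0), *Pcdh7* (24.7), *Cdh2* (16.8), *Pcdh11x* (15.96), *Cdh10* (12.6), *Fat3* (10.9), *Cdh13* (10.3), *Pcdh15* (4.55) and *Clstn2* (2.22). Neighbours in this order had overlapping ranges over the libraries in every case. *Clstn1* therefore moved from below *Fat3* by CPM to the first place per length, and *Cdh13* and *Pcdh15*, with spans of 1041 and 1550 kb, moved down.

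**Figure D5:**
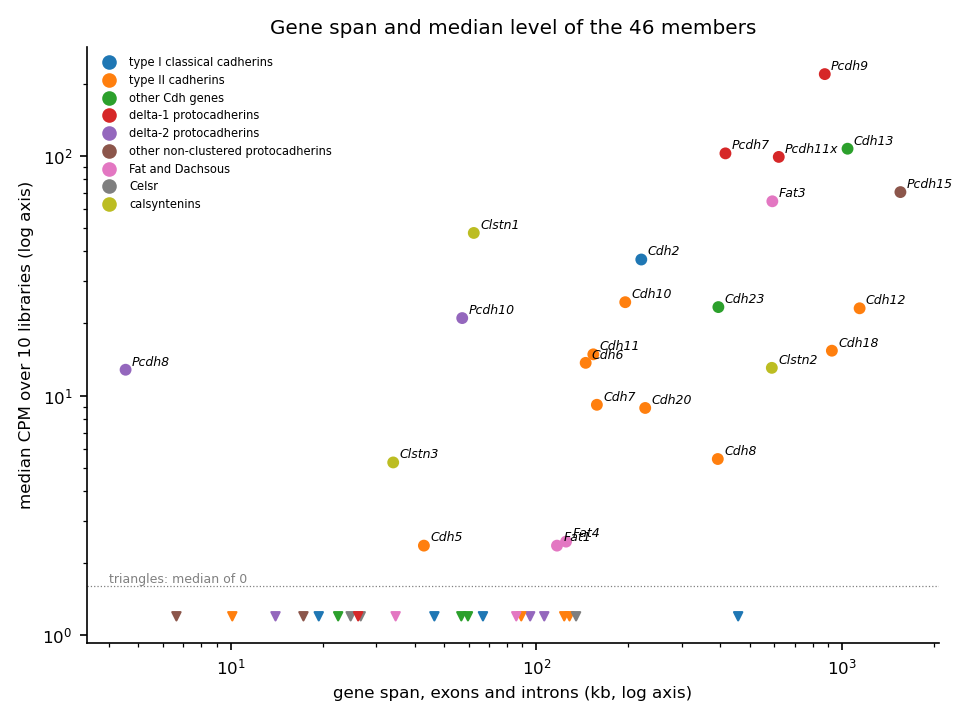
Gene span in kb against the median CPM over 10 libraries, both on log axes, for the 46 members coloured by sub-family. Triangles at the bottom mark members with a median of 0, which lie mostly at shorter spans. *Pcdh15*, the longest at 1550 kb, has a median of 70.6 CPM.

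Markers of other cells were present at changing levels. Oligodendrocyte markers summed to 16 to 1162 reads in *Fezf2+ve* and 24 to 344 in *Fezf2−ve* libraries, and *Fezf2+ve* 2, the highest, was also the library with the high *Cdh11* count. Oligodendrocyte precursor markers summed to 13 to 352 against 34 to 243 reads and astrocyte markers to 83 to 827 against 10 to 804. The highest astrocyte sums, 827 in *Fezf2+ve* 2 and 804 in *Fezf2−ve* 4, came mostly from *Slc1a2*, with 778 and 791 reads there. Inhibitory neuron markers had 11 reads in all, mural markers 11 and meningeal fibroblast markers 8. No gene of these inhibitory, mural and meningeal lists was tested. Among the excitatory neuron, oligodendrocyte, precursor, astrocyte and endothelial markers that were tested, 0 had an unadjusted p under 0.05. Values were higher in *Fezf2+ve* for 5 of 6 tested astrocyte markers (median log2 fold change 1.71), 5 of 7 precursor markers (1.39) and 5 of 7 oligodendrocyte markers (0.40), against 45.7% of all tested genes and their median of -0.16. *Mbp*, a myelin protein gene, was higher in CPM in *Fezf2+ve* in all 5 animals, as were 1.62% of all tested genes, and 289 of its 557 reads lay in *Fezf2+ve* 2. The part of other cells in the members' values and spikes was not tested.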

How the data were processed

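The deposited count table holds unnormalised read counts per gene for 10 libraries. The authors mapped reads to mm10 with TopHat2 2.1.1 and counted them on RefFlat genes with bedtools 2.26.0, which counts a read on every gene it overlaps. A gene had to reach 10 CPM in 2 or more libraries. The 7409 genes left were scaled by TMM and fitted in edgeR 4.0.16 (R 4.3.3) by quasi-likelihood, with terms for animal and type. Adjusted p-values follow Benjamini and Hochberg over these genes, and calls were made at 0.1. The script was tested on simulated data. Pairing comes from the labels, since both libraries of a number are from 1 animal. Deviations of the 2 libraries of an animal from the means of their types correlated at -0.0297 to 0.0966. Alternatives used DESeq2 1.42.0, limma 3.58.1 (voom, added after seeing the data), other scalings, filters and thresholds, downsampling, and left-out animals.

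Values by library are given for tested members with at least 40 reads, an unadjusted p under 0.05 or a call in any alternative. Partner genes were named where their unadjusted p was under 0.05 or they had the most reads of their list. *Ctnnb1*, *Ctnnd2*, *Ctnna2*, *Mbp* and the genes named with single counts were chosen outside these rules, after their values were seen. The members and lists were chosen with earlier results of these data known. Floors of 3 reads cover counting error only. Gene spans are from GENCODE on GRCm38, counted from 1. Values of overlapping genes are uncertain. The authors' table of fold changes and p-values and the spike-in counts were not used here. Python 3.11.15 was used for the remaining steps.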

Additional observations from a re-analysis of the deposited data

Results flagged for a closer look

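In 32 groups of 5 libraries (14 members in each type, the family's share and the library totals), 6 values lay far from the other 4. Chance flags about 1 in 20 groups. On the log2(CPM + 1) scale these were *Pcdh9* at 12.39 in *Fezf2+ve* 3, *Pcdh15* at 13.99 in *Fezf2−ve* 4, *Pcdh11x* at 13.06 and *Clstn1* at 11.57 in *Fezf2−ve* 1, each above its group, and *Cdh18* at 0 in *Fezf2−ve* 1, below it. The family's share of gene reads in *Fezf2+ve* 4, 10.1%, was far above the other *Fezf2+ve* libraries.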

How the results depend on the processing

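Without the animal block, in which the pairing is not used, 279 genes and 4 members were called and 9 members had an unadjusted p under 0.05. DESeq2 with the block called 98 genes and 1 member. No other fit called a gene, except that limma-voom, added after seeing the data, called 13 genes and 0 members. The count of members with an unadjusted p under 0.05 was 1 to 2 over the fits without 1 animal (2 without animal 4, when *Cdh2* joined *Cdh23*), 2 with limma-voom (*Fat3* and *Cdh23*) and 2 with animals 1 and 4 left out (*Pcdh11x* and *Cdh23*), an alternative also chosen after seeing the data. *Cdh23* had that p in each of these fits. The median log2 fold change of tested members was -0.70 with no filter, over 40 members, -0.57 to -0.05 without 1 animal, 0.0189 with limma-voom and 0.0123 with animals 1 and 4 left out. Of 208 values of the 14 named members under alternatives, 13 changed sign, and 8 of the 14 never did. Without the block, *Pcdh11x* was at -1.54, *Cdh20* at 0.0375 and *Cdh10* at 0.0227. With the sign kept, that fit also moved *Pcdh15* to -6.28, *Cdh13* to -3.69, *Clstn1* to -3.31, *Pcdh9* to -2.23, *Pcdh7* to 5.23, *Cdh11* to 5.07 and *Fat3* to 8.67. With downsampling *Cdh20* was at 0.19 and *Cdh10* at 0.0372. With animals 1 and 4 left out *Pcdh15* was at 0.00621, *Cdh13* at 0.15 and *Clstn1* at 0.23. With limma-voom *Cdh20* was at 0.10. Without 1 animal, *Pcdh15* ranged from -1.24 to 0.0321, *Clstn1* from -1.37 to 0.11 and *Cdh20* from -0.96 to 0.39, without a value for animal 3, since *Cdh20* then failed the filter. *Cdh23* ranged from -4.71 to -3.31 in those fits. The cause of these changes was not tested. Whether the number of reads or the spread between libraries limits the calls more was not tested.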
